A study of Mus musculus and Homo sapiens
Mus musculus with 14 samples.

Results

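Glutamate is loaded into synaptic vesicles by 3 vesicular glutamate transporters and cleared from the space around synapses by 5 plasma membrane transporters, and the genes of these 8 proteins were followed here through the mouse retina. The members were chosen by gene symbol: Slc17a6, Slc17a7 and Slc17a8, which encode VGLUT2, VGLUT1 and VGLUT3, and Slc1a1, Slc1a2, Slc1a3, Slc1a6 and Slc1a7, which encode EAAT3, EAAT2 (GLT-1), EAAT1 (GLAST), EAAT4 and EAAT5. All 8 were listed among the 24460 genes of the table of retinal layers and among the 18415 genes of the table of amacrine cells. Light-Seq, the assay used, attaches a DNA barcode by light to complementary DNA in chosen regions of a fixed section, so that each region becomes its own library of unique molecular identifiers (UMIs).

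All mice were wild-type CD1 IGS animals at postnatal day 18, with no treatment that differed between groups, and sections were 18 µm thick. The layer experiment held 4 sections of 1 animal, each with 3 libraries: the photoreceptors of the outer nuclear layer (ONL), the bipolar cell layer (BCL), where Müller glia and horizontal cells also have their cell bodies, and the innermost layer of ganglion cells with displaced amacrine cells (GCL). The amacrine experiment held 5 sections, each with a library of 4 to 8 pooled cells stained for tyrosine hydroxylase (TH+, dopaminergic amacrine cells) and a library of unstained amacrine cells (TH-). The methods speak of a single source animal for the Light-Seq work where they describe the dopaminergic cells, so these sections are not taken as separate animals. The 4 layer sections are technical replicates of 1 animal, and p-values in both experiments measured the spread between sections and not between animals. Totals were 310228 to 801105 UMIs in ONL, 193869 to 208437 in BCL, 585655 to 785013 in GCL, 30317 to 87449 in TH+ and 134394 to 200344 in TH- libraries.

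In the retina, photoreceptors and bipolar cells release glutamate from ribbon synapses and use VGLUT1, whereas ganglion cells use VGLUT2 and a small class of amacrine cells uses VGLUT3. EAAT1 of Müller glia carries most of the uptake, GLT-1 and EAAT5 sit on photoreceptors and bipolar cells, and EAAT3 is found on ganglion, amacrine and horizontal cells. Müller glia turn the glutamate they take up into glutamine, which returns to neurons, and vesicles are filled at the expense of a proton gradient made by the vacuolar H+-ATPase (V-ATPase).

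On GRCm39, the build of the count tables, the vesicular genes lie at chr7:51271434-51320867 (Slc17a6), chr7:44813305-44825644 (Slc17a7) and chr10:89409882-89457326 (Slc17a8). The uptake genes lie at chr19:28812449-28891360 (Slc1a1), chr2:102488574-102621129 (Slc1a2), chr15:8663604-8741595 (Slc1a3), chr10:78616181-78650614 (Slc1a6) and chr4:107825529-107870729 (Slc1a7). All are protein-coding and counted over exons, with exonic lengths from 2152 bases (Slc1a6) to 13133 bases (Slc1a2).

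The sequence before the transcription start is shown for the 3 members that were high in ONL and BCL together (Slc17a7, Slc1a2, Slc1a7) and for Slc17a6 (the first of its listed starts), 1 of the 2 members called higher in GCL than in both other layers, the other being Slc1a1. Each is the 250 bases before the start on the plus strand from RefSeq, build GRCm38.p6, written 5′ to 3′, and capitals mark the GC box GGGCGG or its reverse complement.
Slc17a7 (chr7:45163671-45163920): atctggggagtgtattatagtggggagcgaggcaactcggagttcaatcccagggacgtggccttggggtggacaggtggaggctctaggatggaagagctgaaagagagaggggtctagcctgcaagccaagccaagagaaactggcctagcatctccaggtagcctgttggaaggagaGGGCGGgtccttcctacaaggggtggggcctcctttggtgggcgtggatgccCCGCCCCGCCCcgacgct
Slc1a2 (chr2:102706188-102706437): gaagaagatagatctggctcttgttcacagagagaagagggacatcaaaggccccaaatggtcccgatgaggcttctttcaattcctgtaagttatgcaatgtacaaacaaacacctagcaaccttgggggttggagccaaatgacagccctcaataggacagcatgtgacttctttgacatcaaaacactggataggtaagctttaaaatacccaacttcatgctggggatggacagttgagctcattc
Slc1a7 (chr4:107968156-107968405): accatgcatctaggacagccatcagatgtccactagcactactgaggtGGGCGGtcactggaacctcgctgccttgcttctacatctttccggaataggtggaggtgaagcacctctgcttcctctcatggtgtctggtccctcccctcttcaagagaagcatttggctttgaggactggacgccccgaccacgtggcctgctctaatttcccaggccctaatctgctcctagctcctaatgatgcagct
Slc17a6 (chr7:51621580-51621829): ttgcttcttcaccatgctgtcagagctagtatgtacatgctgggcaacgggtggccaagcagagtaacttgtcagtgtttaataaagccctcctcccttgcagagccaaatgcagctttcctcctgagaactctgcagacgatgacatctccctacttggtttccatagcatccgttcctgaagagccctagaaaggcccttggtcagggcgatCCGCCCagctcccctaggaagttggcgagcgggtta
The Slc17a7 sequence held GC boxes beginning 70, 18 and 13 bases before the start, the last pair overlapping. Slc1a7 held a GC box at 202 bases and Slc17a6 at 36 bases. Slc1a2 held none before its listed RefSeq start. Where that start lies along the Slc1a2 gene was not checked, since the gene's coordinates above are on another build. It may not be the gene's main start. Over the 10 RefSeq starts of the 8 members, 6 sequences held a GC box on either strand, and 32.7% of all 32851 promoter sequences of this length did. The letters TAATCC, the core motif of the photoreceptor factors CRX and OTX2, were in none of the 10 sequences on either strand and in 6.25% of all. The letters CAGCTG, an E-box, were in the Slc1a6 sequence and in 13.0% of all. These matches describe letters in a short window and were not read as binding sites.

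Slc17a7, encoding the vesicular transporter of photoreceptor and bipolar cell ribbon synapses, had the highest level per kilobase of the 8 members in ONL (739 ± 104 CPM per kilobase, SD, n = 4). Its levels, in CPM (the UMIs of a gene scaled to the total of its library), were 3826, 4727, 3995 and 3385 in ONL sections 1 to 4. They were 1821, 1962, 2465 and 2091 CPM in BCL and 357, 616, 541 and 338 CPM in GCL. The 3 layers did not overlap, with the order ONL, BCL, GCL in 4 of 4 sections. The means were 3983 ± 559, 2085 ± 276 and 463 ± 137 CPM (SD, n = 4 each). By edgeR's quasi-likelihood test, in which TMM scaling sets a common level for all genes, Slc17a7 was 2.41-fold higher in ONL than in BCL (log2 1.27 ± 0.13 SE, adjusted p = 1.55e-11) and 9.65-fold higher in ONL than in GCL (log2 3.27 ± 0.14, adjusted p = 1.28e-26). It was also 4.01-fold higher in BCL than in GCL (adjusted p = 2.39e-17). Because each library pools the RNA of many cells, fewer cells of a type and less RNA per cell cannot be told apart in these differences.

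Slc17a6, the vesicular transporter gene of ganglion cells, ran the other way. It had 420, 399, 432 and 391 CPM in GCL (410 ± 18.9, SD, n = 4). In BCL it had 25.8, 38.4, 30.5 and 44.5 CPM, and in ONL 43.7, 20.7, 11.4 and 25.8 CPM. Every GCL section stood above every section of the other layers, while ONL and BCL overlapped. Slc17a6 was 13.2-fold higher in GCL than in ONL (log2 difference ONL minus GCL -3.72 ± 0.17 SE, adjusted p = 9.31e-26) and 13.1-fold higher than in BCL (adjusted p = 8.84e-21). Between ONL and BCL the log2 difference was -0.0069 ± 0.35 SE (adjusted p = 0.991), from 63 and 28 UMIs. A difference within this error was not detectable at this depth, and a larger one could be missed.

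Slc17a8, the VGLUT3 gene, was at the limit of detection in all layers. It had 5 UMIs over the ONL sections, 4 over BCL and 10 over GCL, with at most 3 in any library. It did not pass the filter on low counts in the layer table and was not tested there. In the amacrine libraries it had 81.7, 34.3, 47.1, 64.9 and 33.0 CPM in TH+ and 19.7, 40.5, 74.4, 110 and 35.2 CPM in TH-, from 1 to 4 and 3 to 22 UMIs per library. The amacrine levels (52.2 ± 20.9 and 55.9 ± 36.1 CPM, SD, n = 5 each) stand beside 2.61 to 4.96 CPM as layer means, but the tables come from separate experiments and were not tested against each other. TH+ and TH- overlapped widely for this gene.

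**Figure D1:**
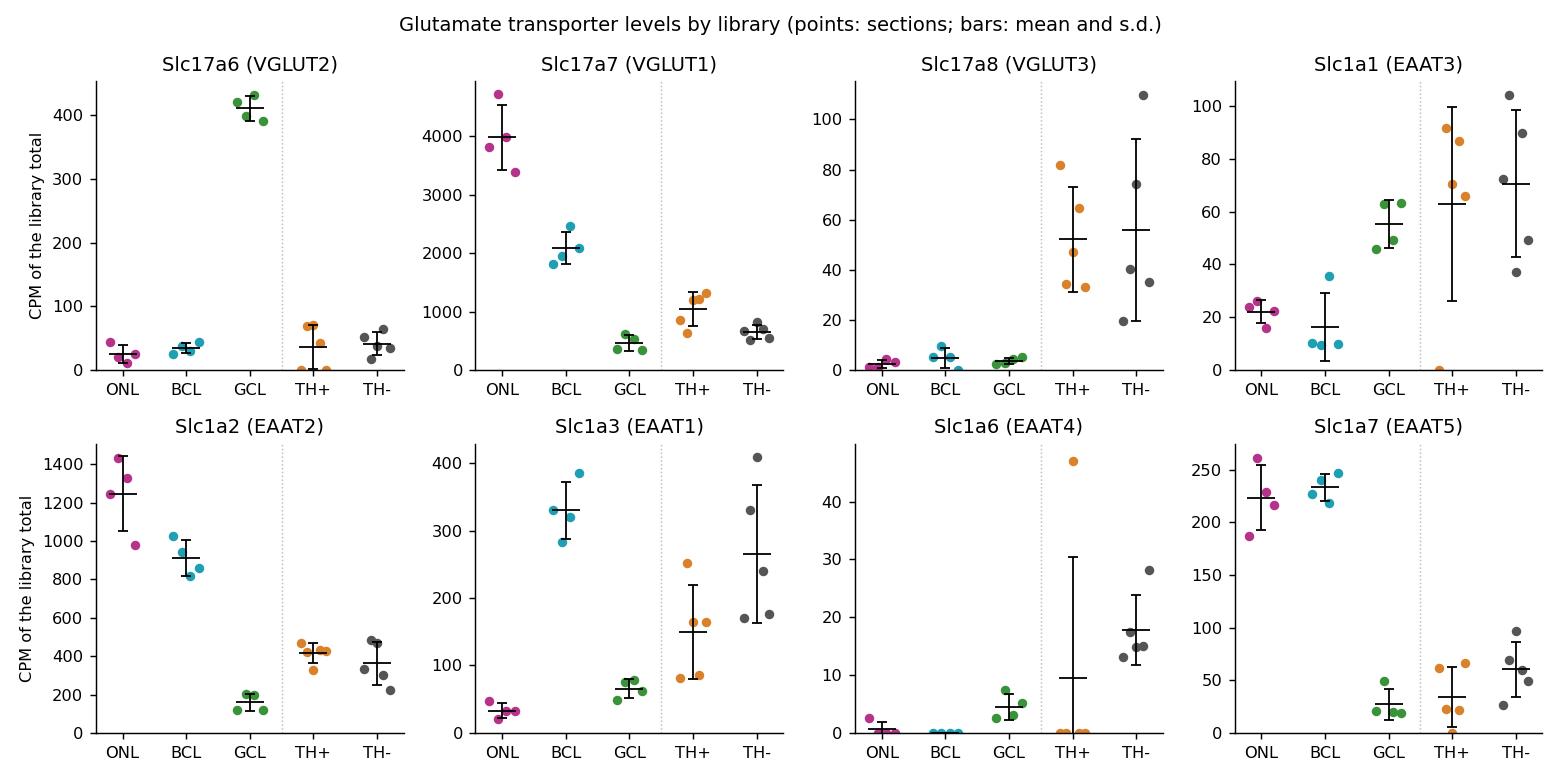
Level of each glutamate transporter gene in every library, in CPM of the library total on linear axes that differ between panels. Points are sections (4 per layer, 5 per amacrine group), bars are mean and SD, and the dotted line divides the layer experiment from the amacrine experiment. Slc17a7 and Slc1a2 were lowest in GCL among the layers, Slc17a6 stood out in GCL and Slc1a3 in BCL.

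Among the uptake genes, Slc1a3, the GLAST gene of Müller glia, was the one centred on BCL. Its levels were 330, 283, 320 and 386 CPM in BCL, 48.4, 74.9, 78.4 and 61.5 CPM in GCL and 47.4, 20.7, 32.0 and 32.2 CPM in ONL. No section of ONL or GCL reached the lowest BCL section. Slc1a3 was 7.67-fold higher in BCL than in ONL (log2 difference ONL minus BCL -2.94 ± 0.19 SE, adjusted p = 1.30e-18) and 4.48-fold higher than in GCL (adjusted p = 4.61e-16). It was also 1.71-fold higher in GCL than in ONL (log2 difference ONL minus GCL -0.77 ± 0.22, adjusted p = 0.00173), a call that was lost without section 2 (log2 -0.50, adjusted p = 0.0760). The GCL libraries also carried markers of astrocytes, glia of the nerve fibre side that use GLAST too: the 5 listed genes summed to 204 CPM in GCL (162 to 238) against 32.4 in ONL (12.4 to 52.4) and 38.4 in BCL (20.6 to 54.4). All 5 had UMIs in GCL and ONL and 4 of 5 in BCL. Gfap alone had 148 CPM in GCL, most of the sum. Aldh1l1 was lower in GCL (7.74 CPM) than in BCL (17.4 CPM), whereas the other listed genes were highest in GCL. The part of astrocytes in the Slc1a3 difference was not tested.

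Slc1a2, the GLT-1 gene, followed the layer order of Slc17a7. It had 1246, 1430, 1331 and 977 CPM in ONL, 1026, 945, 818 and 860 CPM in BCL and 118, 202, 195 and 120 CPM in GCL. ONL and BCL overlapped through the lowest ONL section, yet ONL was the higher in 4 of 4 sections, and both stood far above GCL. The gene was 1.73-fold higher in ONL than in BCL (log2 0.79 ± 0.13 SE, adjusted p = 1.62e-06), a value that fell to log2 0.45 (adjusted p = 0.00310) when the TMM factors were left out. It was 8.84-fold higher in ONL than in GCL (adjusted p = 3.99e-26) and 5.11-fold higher in BCL than in GCL (adjusted p = 3.97e-19).

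Slc1a7 encodes EAAT5, which acts as a glutamate-gated chloride channel on photoreceptor and bipolar cell terminals. It had 187, 261, 228 and 216 CPM in ONL and 227, 240, 219 and 247 CPM in BCL, and these layers overlapped. GCL had 20.4, 49.5, 20.0 and 18.8 CPM, below both. Slc1a7 was 9.15-fold higher in ONL than in GCL (log2 3.19 ± 0.18 SE, adjusted p = 9.13e-22) and 7.58-fold higher in BCL than in GCL (log2 2.92 ± 0.22, adjusted p = 1.35e-16). Between ONL and BCL the log2 difference was 0.27 ± 0.16 SE (adjusted p = 0.190), and its sign turned to -0.071 without the TMM factors.

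Slc1a1, the EAAT3 gene, was highest in GCL among the layers. Its levels were 45.9, 62.9, 49.2 and 63.2 CPM in GCL, 23.7, 26.3, 16.0 and 22.6 CPM in ONL and 10.3, 9.60, 35.6 and 9.89 CPM in BCL. GCL did not overlap with the other layers, and BCL section 3, with 7 of the 13 BCL UMIs, stood above the ONL range. Slc1a1 was 2.12-fold higher in GCL than in ONL (adjusted p = 0.000111) and 3.74-fold higher than in BCL (adjusted p = 2.11e-05). ONL against BCL gave a log2 difference of 0.82 ± 0.43 SE (adjusted p = 0.138), which became 1.53 (adjusted p = 0.0196) when BCL section 3 was left out.

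Slc1a6, the EAAT4 gene best known from cerebellar Purkinje cells, was near the limit of detection in the layers. It had 12 UMIs over the 4 GCL sections, 2 in ONL section 1 and none in the other ONL sections. BCL had 0 of 801374 UMIs, which allows a level of up to 3.74 CPM over the group. It was not tested in either table. The amacrine libraries held 2 UMIs in TH+, both in section 3, and 14 in TH-, with 2 to 4 in each section (17.7 ± 6.05 CPM, SD, n = 5). The limit of 3.74 CPM covers counting error only, whereas the SD is the spread over sections.

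Counted together, 6 of the 8 members passed the low-count filter in the layer table, Slc17a8 and Slc1a6 being left out. Between ONL and BCL, 2 were called higher in ONL (Slc17a7, Slc1a2) and 1 in BCL (Slc1a3), where 18.5% and 18.2% of all 11324 genes tested were called in these directions. Between ONL and GCL, 3 were called higher in ONL (Slc17a7, Slc1a2, Slc1a7) and 3 in GCL (Slc17a6, Slc1a1, Slc1a3), against 29.3% and 32.2% of all genes. Between BCL and GCL, 4 were called higher in BCL (Slc17a7, Slc1a2, Slc1a3, Slc1a7) and 2 in GCL (Slc17a6, Slc1a1), against 16.1% and 20.4%. The median log2 difference over the tested members was 0.53, 1.18 and 2.08 in these comparisons, and 0.087, 0.0041 and -0.018 over all genes tested. All 6 reached the low-count filter's level in 4 of 4 libraries of each layer. The members were chosen with earlier results known, so these counts are a description, and the comparisons share libraries. Leaving out the TMM factors moved the median of all genes by -0.34 between ONL and BCL, -0.17 between ONL and GCL and 0.17 between BCL and GCL. It changed the ONL against BCL split over all genes from 2096 higher in ONL and 2056 higher in BCL to 1198 and 2889, while the number of transporters called stayed at 3, 6 and 6.

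**Figure D2:**
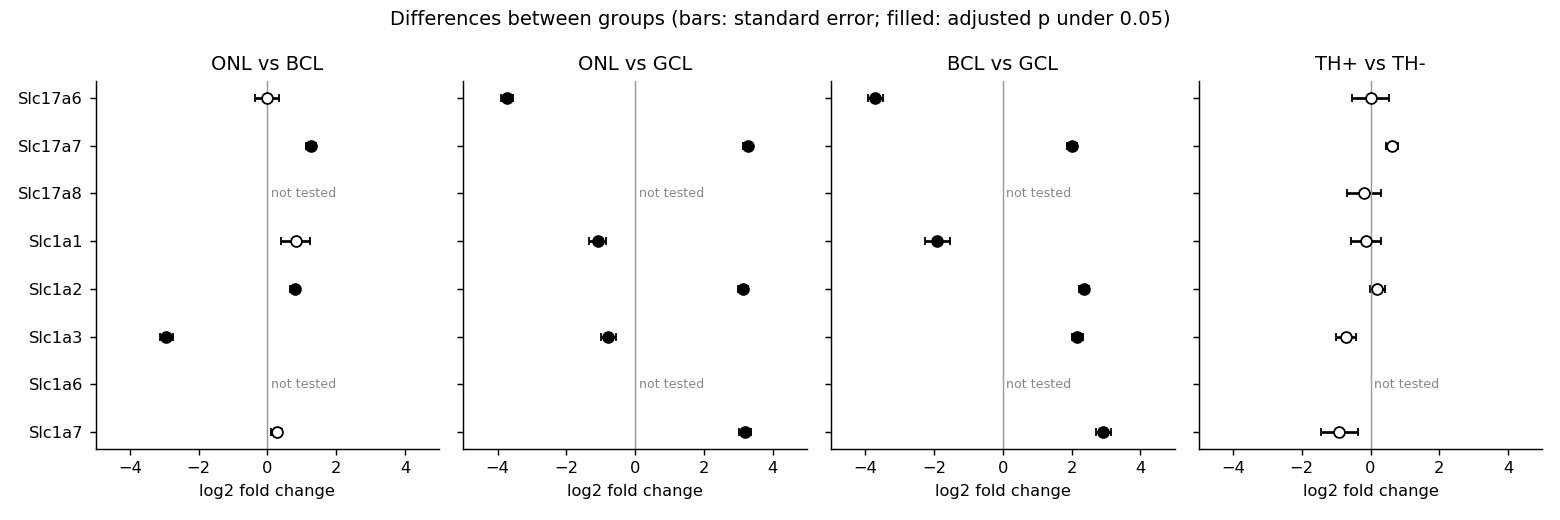
Log2 difference of each transporter gene in the 4 comparisons, first group minus second, from edgeR with TMM scaling. Bars are standard errors and filled points have an adjusted p under 0.05. Slc17a7, Slc1a2 and Slc1a7 lay to the right of 0 in both comparisons with GCL (up to 3.27), Slc17a6 and Slc1a1 to the left (-3.72 to -1.09), and no point was filled between TH+ and TH-.

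In the fit without a section term, edgeR called none of the 7 transporter genes tested between TH+ and TH- amacrine cells. In that fit 0.747% of the 6021 genes tested were called higher in TH+ and 0.0830% higher in TH-. At an unadjusted p under 0.05, 2 of the 7 passed (Slc17a7 and Slc1a3), and DESeq2 called none. The median log2 difference was -0.14 over these members and -0.052 over all genes. With the section as a replicate block, edgeR called Slc17a7 (adjusted p = 0.000417), where 148 of all genes were called, against 50 without it.

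Slc17a7 had 858, 629, 1200, 1211 and 1319 CPM in TH+ sections 1 to 5 and 664, 515, 826, 709 and 550 CPM in TH-. It was higher in TH+ in 5 of 5 sections, although the ranges overlapped through TH+ section 2 and TH- sections 1, 3 and 4. The means were 1043 ± 289 and 653 ± 125 CPM (SD, n = 5 each), and the log2 difference was 0.62 ± 0.18 SE (adjusted p = 0.0931). With the section as a replicate block, which sets both libraries of a section against each other, the adjusted p was 0.000417 at the same log2 difference. Without TH+ section 2 it was 0.00853, at log2 0.75.

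Rod markers were set beside this difference. The 10 listed rod genes summed to 30527 CPM in TH+ (14431 to 37020) and 17677 CPM in TH- (8274 to 21683), were higher in TH+ in 5 of 5 sections, and were all detected in both groups. Section 2 had the lowest rod sum in both groups and also the lowest Slc17a7. Per 100 rod marker UMIs, Slc17a7 had 3.51 UMIs in TH+ (2.95 to 4.36) and 3.99 in TH- (3.11 to 6.22), with TH+ higher in 2 of 5 sections. This ratio is a description, and the part of rod RNA in the Slc17a7 difference was not tested.

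Slc1a3 differed the other way, with 81.7, 252, 165, 86.5 and 165 CPM in TH+ and 171, 330, 409, 240 and 176 CPM in TH-. It was lower in TH+ in 5 of 5 sections, with overlapping ranges. The log2 difference was -0.71 ± 0.29 SE (adjusted p = 0.394), and it reached an adjusted p of 0.0489 without TH+ section 2 (log2 -1.18). The 10 Müller glia markers (such as Rlbp1 and Aqp4) summed to 2736 CPM in TH+ (2408 to 3152) and 3810 CPM in TH- (3083 to 4316), lower in TH+ in 5 of 5 sections with all 10 detected in both groups. Per 100 of these marker UMIs Slc1a3 had 5.43 UMIs in TH+ and 6.82 in TH-, with TH+ lower in 3 of 5 sections. A lower sum in TH+ was not particular to Müller glia markers. The amacrine markers were lower in 5 of 5 sections (4709 CPM against 6408), and bipolar and endothelial markers in 4 of 5.

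The other members gave no call. Slc1a2 had 470, 423, 329, 432 and 429 CPM in TH+ and 335, 486, 469, 299 and 226 CPM in TH- (log2 0.20 ± 0.21 SE, adjusted p = 0.866). Slc1a1 had 0 to 91.5 CPM in TH+ and 37.2 to 104 CPM in TH- (log2 -0.14 ± 0.44), and Slc1a7 had 0 to 66.0 and 26.3 to 96.7 CPM (log2 -0.91 ± 0.54). For Slc17a6 the range was 0 to 70.6 CPM in TH+ and 17.4 to 64.9 CPM in TH- (log2 0.0099 ± 0.54), and for Slc17a8 the log2 difference was -0.18 ± 0.49. Of these last 4 genes a TH+ library held at most 8 UMIs. Differences of the size of their standard errors were not detectable at this depth, and larger ones could be missed. Slc1a7 had an adjusted p of 0.673. In simulated data with known changes, 45.9% of 2-fold changes were recovered in this comparison, with genes of the lowest counts left out.

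Levels of different genes were compared only per kilobase of the exonic length given in the tables, since random priming gives longer transcripts more UMIs. On this scale Slc17a7 made up 99.3% of the vesicular family in ONL (98.8 to 99.6 over sections) and 98.1% in BCL (97.5 to 98.6). In GCL it shared the family with Slc17a6, at 51.9% (45.8 to 60.5) and 47.6% (39.1 to 53.9). Each gene led in 2 of 4 GCL sections, so their order there could not be told. In TH+ and TH- libraries Slc17a7 was 90.9% and 86.5% of the family per kilobase. Slc17a8 was 5.51% and 8.08%, against at most 0.511% as a layer mean. These libraries and those of GCL also held rod RNA. The rod markers summed to 30527 CPM in TH+, 17677 in TH- and 6188 in GCL. The part of rod RNA in the Slc17a7 shares was not tested. The summed vesicular family was 744 ± 103 CPM per kilobase in ONL, 394 ± 51.2 in BCL and 163 ± 26.2 in GCL (SD, n = 4).

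The plasma membrane family was divided more evenly. Per kilobase, ONL had 56.3% Slc1a2 and 39.6% Slc1a7, and the remaining members added 2.37% (Slc1a3) or less each. In BCL, Slc1a2 and Slc1a7 each had 38.7% and Slc1a3 21.5%, and the first pair could not be ordered (2 of 4 sections each way). GCL had 33.0% Slc1a2, 21.3% Slc1a3, 21.2% Slc1a7, 18.8% Slc1a1 and 5.64% Slc1a6, where Slc1a2 (28.5 to 39.8%) lay above Slc1a3 (17.6 to 24.6%) in every section, and the ranges of Slc1a3, Slc1a7 and Slc1a1 overlapped. The family sum per kilobase was 168 ± 20.2 CPM in ONL, 179 ± 7.82 in BCL and 36.7 ± 9.75 in GCL (SD, n = 4), so that ONL and BCL lay within their spread of each other while GCL lay below both. In TH+ Slc1a2 had the largest mean share (45.2%) and was above Slc1a3 in 5 of 5 sections, and in TH- Slc1a3 (32.5%) and Slc1a2 (29.6%) overlapped.

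**Figure D3:**
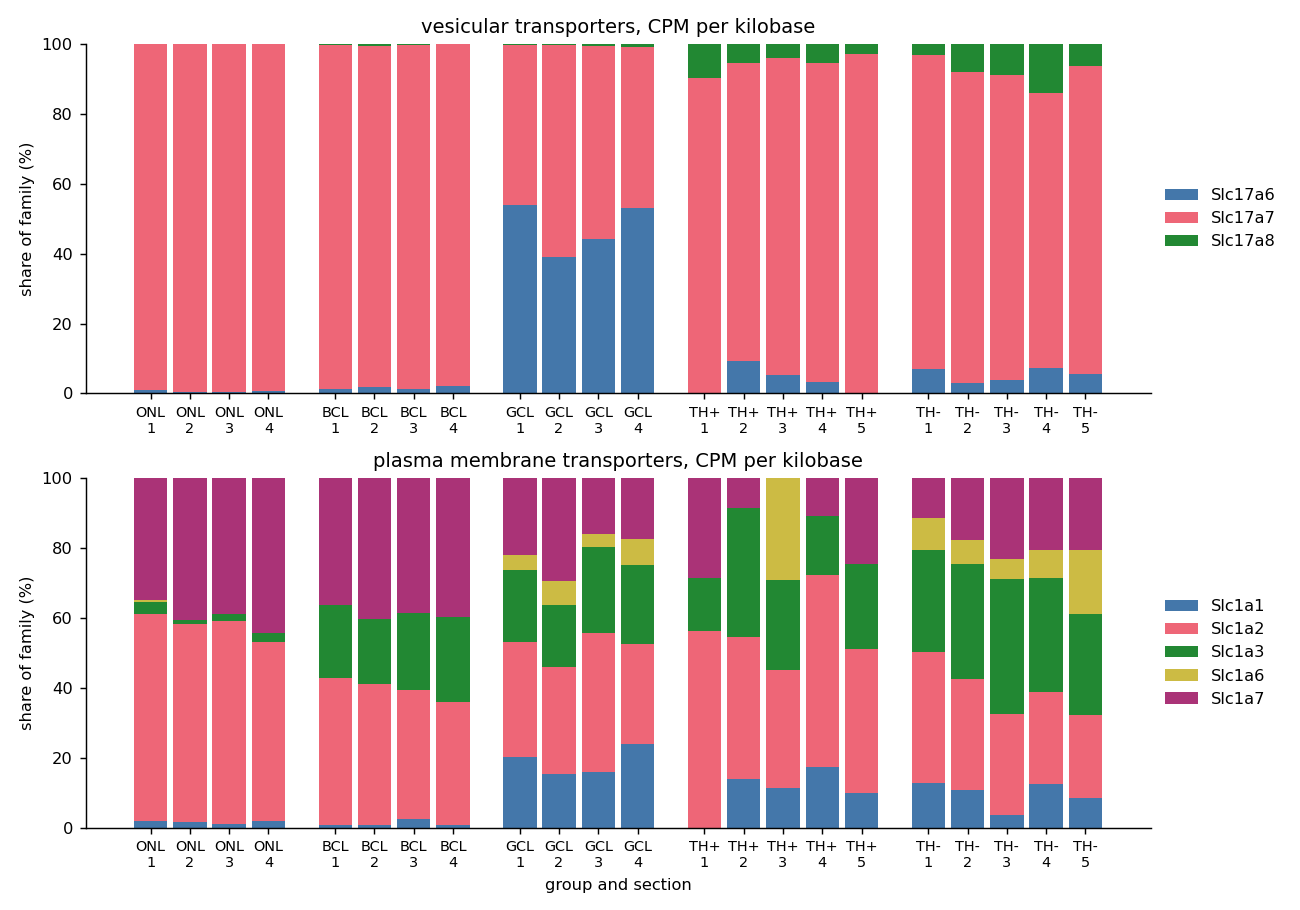
Share of each gene in its transporter family per library, in percent of the family's summed CPM per kilobase of exonic length, for the vesicular genes (top) and the plasma membrane genes (bottom). Each bar is a section. Slc17a6 takes 39.1 to 53.9% of the vesicular family in GCL and at most 9.30% in any other library.

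The labelled layers carried the markers of their cells. Rod genes summed to 69694 CPM in ONL (60322 to 74294), 16304 in BCL and 6188 in GCL, bipolar genes to 7762 in BCL against 1150 in ONL and 516 in GCL, and ganglion cell genes to 6766 in GCL against 533 to 544 in the others. Rod genes thus had UMIs in every group, and the members were set against the marker sums of their own library. Slc17a7 had 5.76 UMIs per 100 rod marker UMIs in ONL (4.56 to 6.77), 13.0 in BCL (11.4 to 14.3) and 7.47 in GCL (6.60 to 8.95), so that BCL stood above both other layers in every section. GCL was above ONL in 4 of 4 sections, although their ranges overlapped. Slc1a7 per 100 rod marker UMIs was 1.49 in BCL (1.01 to 1.78), 0.321 in ONL (0.291 to 0.374) and 0.442 in GCL (0.248 to 0.719), again with BCL apart, and with GCL above ONL in 3 of 4 sections. Slc1a2 per 100 rod marker UMIs was 5.88 in BCL (3.80 to 8.05), 2.56 in GCL (2.33 to 2.94) and 1.80 in ONL (1.31 to 2.07), with no overlap between the layers. Slc17a6 per 100 ganglion cell marker UMIs was 6.09 in GCL (5.33 to 6.48), 6.62 in BCL (4.63 to 8.51) and 4.62 in ONL (2.66 to 6.25), ranges that all overlapped, with GCL above ONL in 4 of 4 sections and BCL above each of the others in 3 of 4. Slc1a1 per 100 ganglion cell marker UMIs was lowest in GCL, at 0.816 (0.707 to 0.967), whereas its CPM was highest there. The ratio was 3.31 in BCL (1.48 to 7.78) and 4.45 in ONL (3.24 to 7.45), which overlapped with each other but not with GCL. Amacrine and horizontal cells, also named above for EAAT3, were not used in this ratio. Their markers summed to 2519 and 215 CPM in GCL, 1134 and 780 in BCL, and 522 and 95.5 in ONL. Slc1a3 per 100 Müller glia marker UMIs was 7.46 in BCL (6.24 to 8.41), 5.51 in GCL (4.10 to 6.51) and 3.52 in ONL (2.31 to 4.39), where GCL overlapped with both, BCL was above GCL and ONL in 4 of 4 sections, and GCL was above ONL in 3 of 4. These ratios are descriptions, and the part of RNA from neighbouring layers in any member's level was not tested.

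**Figure D4:**
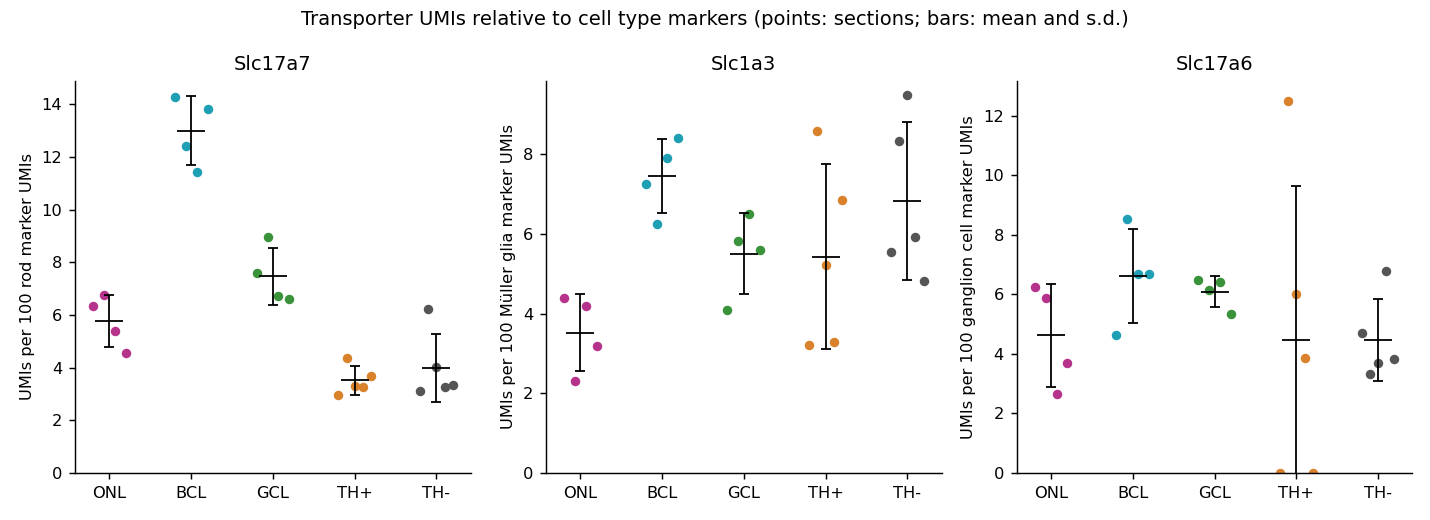
UMIs of Slc17a7, Slc1a3 and Slc17a6 per 100 UMIs of the rod, Müller glia and ganglion cell marker lists, by library. Points are sections and bars mean and SD. Slc17a7 per rod UMI was highest in BCL (11.4 to 14.3), and Slc17a6 per ganglion cell UMI overlapped between the layers.

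Other genes of the glutamate and glutamine cycle were read from a list of 18, of which 14 were tested in the layers. Between ONL and BCL 5 were called higher in ONL and 4 in BCL (35.7% and 28.6% of those tested, against 18.5% and 18.2% of all genes), with a list median log2 difference of -0.31 (all genes 0.087). Between ONL and GCL the counts were 4 and 5 (28.6% and 35.7%), close to the 29.3% and 32.2% of all genes, with a median of 0.025. Between BCL and GCL they were 5 and 4 (35.7% and 28.6%, against 16.1% and 20.4%), with a median of -0.025. Glul, the glutamine synthetase of Müller glia, had 526 CPM in ONL, 4577 in BCL and 1004 in GCL, and thus its maximum in BCL, as Slc1a3 did. Its log2 difference was -2.81 for ONL minus BCL (adjusted p = 6.29e-24), -0.79 for ONL minus GCL (adjusted p = 6.19e-07) and 2.02 for BCL minus GCL (adjusted p = 1.81e-19).

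Slc38a3, a glutamine transporter, had 593, 451 and 54.7 CPM in ONL, BCL and GCL. It differed by log2 3.60 between ONL and GCL (adjusted p = 5.95e-28) and by 2.88 between BCL and GCL (adjusted p = 7.85e-21). Gls2, which encodes a liver-type enzyme that makes glutamate from glutamine, had 31 UMIs in GCL and 1 each in ONL and BCL. It reached the low-count filter's level in 4 of 4 GCL libraries and in 0 of ONL and BCL, so that it was tested only because it was high in GCL, and its calls, which are among the counts on the GCL side given above, support nothing further. Also among the largest differences were Slc3a2 (log2 1.26) and the mitochondrial glutamate carrier Slc25a22 (log2 0.98) in ONL over GCL, and Glud1, glutamate dehydrogenase, in GCL over ONL (log2 difference ONL minus GCL -1.31). Slc38a2, Got1 and Slc3a2 were higher in ONL than in BCL (log2 0.86, 0.83 and 0.80). Slc7a11, the cystine and glutamate exchanger, was higher in BCL than in ONL (log2 difference ONL minus BCL -1.56) and than in GCL (log2 1.45), from 15 UMIs in BCL, with neither called by DESeq2 (adjusted p = 0.0630 and 0.0749), and Slc38a1 was higher in BCL than in ONL (-0.55). Got1 and Slc38a2 were higher in GCL than in BCL (log2 differences BCL minus GCL -0.90 and -0.74).

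The neutral amino acid transporters of the Slc1 family, which do not carry glutamate as their main substrate, were rare. Slc1a4 had 19 UMIs in ONL, 16 in BCL and 71 in GCL and was called higher in GCL than in ONL (log2 difference ONL minus GCL -1.47, adjusted p = 0.000227). Slc1a5 had 9, 4 and 3 UMIs and was not tested. Between TH+ and TH-, none of the 11 cycle genes tested was called by DESeq2 or by edgeR without a section term, and 1 had an unadjusted p under 0.05. This was Glul, at 2035 CPM in TH+ and 3158 in TH- (log2 -0.62 ± 0.16 SE, adjusted p = 0.0523, lower in TH+ in 5 of 5 sections), and its adjusted p was 4.60e-08 with the section as a replicate block. The summed Müller glia markers, a list without Glul, were likewise lower in TH+ in 5 of 5 sections (2736 CPM against 3810). So were the amacrine markers (4709 CPM against 6408). The part of Müller glia RNA in the Glul difference was not tested. Slc1a4 had 9 and 18 UMIs there and Slc1a5 0 and 2 UMIs.

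The V-ATPase and the vesicular chloride and proton exchanger Clcn3, which set the gradient that the vesicular transporters use, were read from a list of 14, all tested in the layers. Between ONL and GCL 2 were called higher in ONL and 9 in GCL (14.3% and 64.3% of the list, against 29.3% and 32.2% of all genes tested), with a median log2 difference of -0.74 (all genes 0.0041). Between ONL and BCL 2 were higher in ONL and 5 in BCL (14.3% and 35.7%, against 18.5% and 18.2%), with a median of -0.21. Between BCL and GCL 0 were higher in BCL and 8 in GCL (0% and 57.1%, against 16.1% and 20.4%), with a median of -0.47 (all genes -0.018), and the number called there was 5 with DESeq2 and 5 without TMM factors. The largest difference was that of Atp6v1g2, the neuronal G2 subunit, with 80.3 CPM in ONL, 201 in BCL and 595 in GCL (log2 differences -0.93 for ONL minus BCL, -2.67 for ONL minus GCL and -1.73 for BCL minus GCL). Atp6v1c1 and Atp6v0a1 were next between ONL and GCL (-1.22 and -1.07), Atp6v1d and Atp6v0a1 between ONL and BCL (-0.71 and -0.70), and Atp6v1c1 and Atp6v1h between BCL and GCL (-0.93 and -0.75). Atp6v0e2 and Clcn3 went the other way, higher in ONL than in BCL (log2 0.85 and 0.78) and than in GCL (log2 0.85 and 1.02). None of the 12 tested between TH+ and TH- was called by edgeR or DESeq2, and 0 had an unadjusted p under 0.05.

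The genes whose log2 CPM was most like that of each tested member over the 12 layer libraries were also listed, as a description of libraries that share 3 layers and 4 sections. Slc17a7 was nearest to Atp1b2 (r = 0.995), Sv2b (0.993) and Zfp385a (0.992), and Slc17a6 to Tmem163 (0.991) and Alcam (0.991). Slc1a2 was nearest to Slc38a3 (0.992), Ctbp2 (0.990) and Lrit1 (0.989), of which Slc38a3 is the glutamine transporter named above. Slc1a3 was nearest to Rnf152 (0.992), Gbe1 (0.989) and Nfia (0.988), and Slc1a7 to Nfat5 (0.985), Foxo1 (0.982) and Mbd6 (0.981). For Slc1a1 the values were lower, with M6pr (0.951), Ddr2 (0.935) and Dnlz (0.924).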

How the data were processed

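The authors processed the reads with STAR 2.7.9a, UMI-tools 1.1.1 and featureCounts on GENCODE vM27 (GRCm39), counting exons without strand and discarding reads with several matches and 2 ribosomal RNA genes, and deposited whole-number UMI counts per gene. Because strand was not used, reads from the opposite strand cannot be told apart where annotated antisense exons overlap those of Slc17a6, Slc17a7, Slc1a1, Slc1a2, Slc1a3 and Slc1a6. From these counts, CPM of each library's total and CPM per kilobase of the deposited exonic length were computed. Differences were tested with edgeR 4.0.16 (R 4.3.3) by quasi-likelihood F tests with TMM scaling, with filterByExpr set to min.count 3 and min.total.count 10. The layer fit held 12 libraries and the amacrine fit 10, without a section term, and p-values were adjusted by Benjamini-Hochberg over all genes tested, with calls under 0.05. The authors' methods name DESeq2, which was run as an alternative (1.42.0). Libraries of a section are paired by the labels, which place them in the same sample, and their deviations from the group means correlated by 0.018 to 0.052 in the layers and 0.024 to 0.323 in the amacrine libraries. The fit was tested on simulated data with known changes, with genes of the lowest counts left out. Over the 4 comparisons it recovered 45.9% to 69.9% of 2-fold changes and 83.1% to 95.3% of 4-fold changes. A floor is 3 UMIs. The alternatives were another scaling, other filters, a section block, mitochondrial genes left out and each library or section left out. Every transporter was named in every comparison, and of the other lists the 3 largest called differences in each direction, with Glul, Slc1a4 and Slc1a5 always. A few genes that these rules select are not reported here. The members and lists were chosen with earlier results of these data known. The mixed human and mouse culture entered no comparison.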

Additional observations from a re-analysis of the deposited data

Results flagged for a closer look

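Within groups, 6 of the 40 combinations of a transporter and a group held a library apart from the others by Dixon's test. Its rate of about 1 in 20 groups by chance holds for continuous values. It does not hold for counts of a few UMIs, so no excess can be read from these flags. A group with UMIs in a single library, as Slc1a6 in ONL and in TH+, is always flagged. Slc1a6 in BCL, at 0 throughout, could not be flagged. Slc1a7 reached 49.5 CPM in GCL section 2, against 18.8 to 20.4 in the other 3. Slc1a1 reached 35.6 CPM in BCL section 3 from 7 UMIs, and was at 0 in TH+ section 1, where 3 UMIs would be 61.3 CPM. Slc1a6 was flagged at 2.50 CPM in ONL section 1, 47.1 CPM in TH+ section 3 and 28.2 CPM in TH- section 5, from 2, 2 and 4 UMIs. In the mixed culture of human HEK and mouse 3T3 cells, a group outside the retina comparisons, human SLC1A3 averaged 84.6 CPM over 3 HEK wells, from 5, 6 and 8 UMIs, and mouse Slc1a3 had 2, 13 and 6 UMIs in the 3T3 libraries of these wells.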

How the results depend on the processing

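Between the layers, the number of transporters called ranged from 3 to 4 (ONL against BCL), 5 to 6 (ONL against GCL) and 6 to 6 (BCL against GCL) over all alternatives. Between TH+ and TH- it was 0, but 1 with the section as a replicate block (Slc17a7) and 0 to 2 when single libraries or sections were left out, where 1 was called without section 2 (Slc17a7) and 2 without its TH+ library (Slc17a7 and Slc1a3). The adjusted p of Slc17a7 there ranged from 0.000417 to 0.497, at log2 0.46 to 0.75. Glutamate cycle genes called between TH+ and TH- went from 0 to 1 without a low-count filter, with the replicate block, and without TMM factors (an alternative added after seeing the data), and were 0 to 1 with libraries left out. V-ATPase genes called between BCL and GCL went from 8 to 5 under DESeq2 and to 5 without TMM factors. The replicate block changed no other call of a transporter. Signs turned only for differences with no call. Slc17a6 in ONL minus BCL was 0.018 without a filter and -0.65 to 0.21 with libraries left out, and in TH+ minus TH- it was -0.14 and -0.71 to 0.37. With libraries left out, Slc17a8 in TH+ minus TH- was -0.62 to 0.28 and Slc1a1 was -0.48 to 0.14. Slc1a7 in ONL minus BCL was -0.071 without TMM factors. Without a filter the median of all genes moved by -0.11 between BCL and GCL and by -0.15 between TH+ and TH-. The ONL against BCL split over all genes became 1374 higher in ONL and 2056 in BCL under DESeq2. Genes called between TH+ and TH- rose from 50 to 148 with the replicate block. The causes were not tested. Depth limits low values in the amacrine comparison, where 3 UMIs are 11.7 CPM over all TH+ libraries. All layer sections came from 1 animal.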
